A study of Mus musculus with 12 samples.

Results

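Loss of Bmal1 in M1-activated macrophages was described from 6 of the 12 RNA libraries of the study, namely the 3 M-BKO M1 and the 3 WT M1 cell cultures. Members were the genes with at least 1 TPM (transcripts per 1000000) in at least 3 of these 6 libraries, which were 10042 of the 23440 genes in the deposited table. M-BKO M1 macrophages came from the bone marrow of C57/BL6 mice (C57BL/6J in the study's methods) with a floxed Bmal1 allele and the myeloid Lyz2-Cre driver. The cells were grown out in L929-conditioned medium, primed overnight with Ifn-γ and then given lipopolysaccharide (LPS, a bacterial cell wall component) for 8 h. WT M1 macrophages, from floxed mice without the Cre, had the same medium, priming and LPS. M-BKO control and WT control cultures, also 3 each, had the same medium and Ifn-γ but no LPS, and all 12 libraries entered one fit. The Cre sits in the Lyz2 gene of the M-BKO mice alone, so Bmal1 loss and the Cre insertion cannot be told apart. The replicates are cell culture replicates, so the p-values reflect how far cultures of 1 group differed.

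Bmal1, the product of Arntl, pairs with Clock on E-box elements of DNA and activates the genes of its own inhibitors, the Period and Cryptochrome proteins, and of the REV-ERB receptors Nr1d1 and Nr1d2. REV-ERB receptors repress Arntl in turn, ROR receptors activate it, and proline- and acid-rich bZIP factors such as Dbp and Tef carry the rhythm to output genes. Macrophages hold such a clock, and many of their responses to LPS are known to vary with the time of day.

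The clock genes come first, and their promoters show where the E-box letters lie. The 4 promoters shown are those of 3 repressor genes that rose in M-BKO M1 macrophages and of Nr1d2, the clock gene that fell most. Each is the stretch of 250 bases before the start site from RefSeq (mouse build GRCm38.p6, minus strand for all 4), with the letters CACGTG in capitals wherever they occur. CACGTG reads the same on both strands.
Cry1, chr10:85185055-85185304: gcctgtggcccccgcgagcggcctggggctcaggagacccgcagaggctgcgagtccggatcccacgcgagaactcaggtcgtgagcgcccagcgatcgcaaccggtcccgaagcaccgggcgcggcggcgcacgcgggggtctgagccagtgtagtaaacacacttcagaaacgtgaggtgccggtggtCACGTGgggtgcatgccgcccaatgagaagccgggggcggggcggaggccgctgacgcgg
Gm129, chr3:95882229-95882478: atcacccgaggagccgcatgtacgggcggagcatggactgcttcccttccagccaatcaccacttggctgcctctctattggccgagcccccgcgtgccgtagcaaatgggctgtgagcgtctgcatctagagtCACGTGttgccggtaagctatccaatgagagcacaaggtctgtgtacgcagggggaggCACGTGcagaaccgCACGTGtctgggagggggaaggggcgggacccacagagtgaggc
Bhlhe41, chr6:145865421-145865670: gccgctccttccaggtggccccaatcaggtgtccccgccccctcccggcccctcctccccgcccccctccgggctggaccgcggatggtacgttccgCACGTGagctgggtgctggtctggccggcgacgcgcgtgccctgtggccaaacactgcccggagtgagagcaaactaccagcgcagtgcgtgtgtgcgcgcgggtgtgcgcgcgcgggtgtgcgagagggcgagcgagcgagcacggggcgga
Nr1d2, chr14:18239107-18239356: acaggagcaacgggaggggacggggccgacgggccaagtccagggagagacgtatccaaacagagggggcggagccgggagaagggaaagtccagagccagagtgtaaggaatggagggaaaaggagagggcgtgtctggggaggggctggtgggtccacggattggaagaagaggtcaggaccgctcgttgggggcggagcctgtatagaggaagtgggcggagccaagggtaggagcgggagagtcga
The motif began 60 bases before the start site in Cry1, at 116, 58 and 44 bases in Gm129, and at 153 bases in Bhlhe41. No match was in the Nr1d2 stretch, nor in those of Arntl, Nr1d1, Cry2 and Clock. Tef, which was not called, held the letters 127 bases before its start site. For Per2 and Bhlhe40 no promoter was available. A match is a description of letters, not of binding.

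Of all promoters in the RefSeq table, 6.06% (1639 of 27025) held CACGTG in this window. Among genes with a promoter there, it was in 13.6% of those called higher in M-BKO M1 macrophages (72 of 531), in 8.41% of those called lower (18 of 214) and in 9.16% of all genes tested (749 of 8180). The D-box letters TTATGNAA, read on both strands like the next element, were in 2.64% of promoters of genes called higher, 2.80% of those called lower and 1.85% of all tested. For the element that ROR and REV-ERB receptors share, the shares were 0.942%, 0.467% and 0.379%, or 5, 1 and 31 promoters. These shares are descriptions, and no test was run on them.

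Arntl, the targeted gene (chr7:113207465-113314126, mm10 coordinates of the deposited table), had 3.13, 3.39 and 3.03 TPM in the 3 M-BKO M1 cultures, against 5.47, 4.81 and 5.801 TPM in the 3 WT M1 cultures. The groups did not overlap, and the log2 fold change was -0.60 (standard error 0.082, adjusted p = 0.000551, limma with Benjamini-Hochberg adjustment). A TPM value covers the whole gene and not the floxed exon alone, so what remained of the deleted part was not measured. Without LPS the values were 2.31, 1.97 and 2.46 TPM in M-BKO control and 7.71, 7.25 and 7.54 TPM in WT control cultures, a larger gap (log2 fold change -1.39). The difference between both genotype effects was 0.79 on the log2 scale (adjusted p = 0.0041). Fewer cells that transcribe a gene and less of its RNA per cell cannot be told apart in these bulk libraries. Fold changes refer to log2(TPM + 1), so changes of low genes are understated, and a gene was called at an adjusted p under 0.05.

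Nr1d2, which encodes REV-ERBβ (chr14:18204056-18239106), had 3.31, 3.43 and 3.16 TPM in M-BKO M1 cultures, against 19.9, 17.5 and 19.7 TPM in WT M1 cultures. No M-BKO library came near the WT range, and the log2 fold change was -2.22 (standard error 0.10, adjusted p = 8.34e-09). Its partner Nr1d1 (REV-ERBα, chr11:98767935-98775242) had 1.63, 2.25 and 1.69 TPM in M-BKO M1 and 4.39, 4.62 and 4.38 TPM in WT M1 cultures, and fell by 0.94 on the log2 scale (adjusted p = 0.000243). Thra, the thyroid hormone receptor gene that neighbours Nr1d1 on the other strand (chr11:98741873-98765111), also fell, with 4.21, 3.68 and 3.13 TPM in M-BKO M1 against 6.43, 7.67 and 6.72 TPM in WT M1 cultures (log2 fold change -0.77, adjusted p = 0.000366). The spans of both genes in the table do not overlap. Clock itself was not called (7.76 ± 0.573 TPM in M-BKO M1 and 6.29 ± 0.3197 TPM in WT M1, mean ± SD, n = 3 cultures each, adjusted p = 0.0998), nor were Rora (log2 fold change 0.01) and Nfil3 (-0.06).

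Several repressors were higher. Cry1 (chr10:85131700-85185054), which blocks the Bmal1 and Clock pair, reached 45.3, 43.7 and 48.6 TPM in M-BKO M1 cultures, against 16.5, 15.97 and 15.6 TPM in WT M1 cultures (log2 fold change 1.46, standard error 0.066, adjusted p = 7.23e-09). Cry2 had 6.21, 6.11 and 6.98 TPM in M-BKO M1 and 3.28, 2.76 and 3.25 TPM in WT M1 cultures (log2 fold change 0.86, adjusted p = 0.00019). Per2 was low but apart, with 2.01, 1.98 and 2.35 TPM in M-BKO M1 and 0.516, 0.537 and 0.68 TPM in WT M1 cultures (log2 fold change 0.98, adjusted p = 2.47e-05). None of these 3 genes overlapped between genotypes. Per2 passed the filter of 1 TPM only through its M-BKO M1 cultures, which fixed its lack of overlap, and its test is not free of that selection. Gm129, also known as Ciart, an inhibitor of the Bmal1 complex, had 26.9, 29.5 and 26.6 TPM in M-BKO M1 against 16.5, 17.7 and 17.4 TPM in WT M1 cultures (log2 fold change 0.66, adjusted p = 5.04e-05). Bhlhe41, which competes for E-boxes, had 11.3, 12.5 and 9.99 TPM in M-BKO M1 against 6.82, 7.95 and 6.64 TPM in WT M1 cultures (log2 fold change 0.59, adjusted p = 0.00175).

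Of the other clock genes, Per1 did not pass the test (32.9, 31.9 and 31.5 TPM in M-BKO M1, 30.9, 29.3 and 29.7 TPM in WT M1, log2 fold change 0.10, 95% interval -0.11 to 0.30). Its promoter holds the E-box letters 166 bases before the start site, and a link of these letters to changes in level was not tested. Dbp had a log2 fold change of 0.25 (-0.07 to 0.58), Tef of 0.02 (-0.11 to 0.16) and Bhlhe40 of 0.07 (-0.06 to 0.20), all with intervals that include 0. Timeless was lower in M-BKO M1 cultures (log2 fold change -0.36, adjusted p = 0.0144), a call that ended without M-BKO_M1 replicate 2 (adjusted p = 0.0647). Of 12 tested repressors and turnover genes, 5 rose and 1 fell, and of 6 tested activators and receptors, 3 fell and none rose, while 6.43% of all genes tested were called higher and 2.62% lower. Nampt and Wee1 were the 2 output genes called higher out of 6 tested, and neither call was kept after median-ratio scaling between libraries (adjusted p = 0.0538 and 0.0642) or in more than 1 of the 6 fits that left out an M1 library. These lists were chosen with earlier results of the same libraries known, so their counts are no independent evidence.

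**Figure D1:**
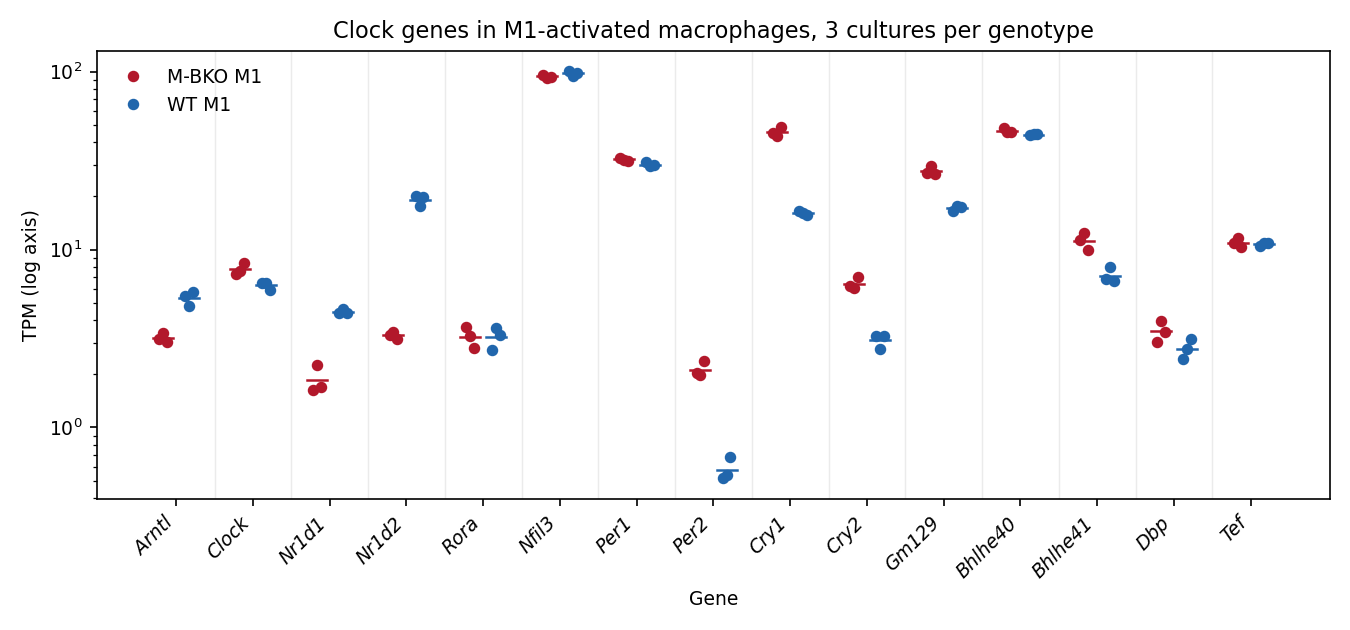
TPM (log axis) of 15 clock genes in each M1-activated culture, with M-BKO M1 left of WT M1 for each gene. Points are the 3 cultures of a group and the short lines are group means. Nr1d2 stood at 3.16 to 3.43 TPM in M-BKO M1 and 17.5 to 19.9 TPM in WT M1 cultures, and Cry1 at 43.7 to 48.6 TPM in M-BKO M1 and 15.6 to 16.5 TPM in WT M1 cultures.

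Across all genes tested, M-BKO M1 macrophages had 646 called higher and 263 called lower than WT M1 macrophages, 9.05% of 10042. Most differences were small. The median size of the log2 fold change among called genes was 0.289, 50 called genes rose and 24 fell by more than 1.5-fold, and 11 rose and 5 fell by more than 2-fold. All 3 M-BKO cultures lay on one side of all 3 WT cultures for 645 of the 646 genes called higher and for the 263 called lower, against 33.1% of all genes tested. A lack of overlap given for a called gene is thus no further evidence for it. Lyz2 held 1.48 to 1.51% of all TPM in WT M1 libraries and at most 0.00788% in M-BKO M1 libraries, which raises every other gene of an M-BKO library by the freed share. With Lyz2 left out of the totals, 468 genes were called higher and 330 lower (4.66% and 3.29%), and with median-ratio scaling 422 and 490 (4.2% and 4.88%), so that the share of calls that were higher was 71.1% as deposited, 58.6% without Lyz2 and 46.3% after median-ratio scaling. In all 3 scalings, 398 genes were called higher and 262 lower, and no gene was called in opposite directions.

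The number of calls also depended on single cultures. It fell to 325 higher and 177 lower without M-BKO_M1 replicate 1, to 339 and 153 without replicate 2, and to 353 and 194 without replicate 3. Leaving out WT_M1 replicate 2 gave 337 and 179, and leaving out WT_M1 replicate 3 gave 321 and 170. Without WT_M1 replicate 1, which was the WT library nearest to the M-BKO ones for 355 of the 646 genes called higher, 968 were called higher and 260 lower. Leaving out WT_control replicate 3, whose residuals were the widest, gave 1282 and 536. In every one of the 6 fits that left out an M1 library, 237 genes were called higher and 126 lower. In what follows, a gene whose call was lost in any of those 6 fits is given with the number of fits that kept it.

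**Figure D2:**
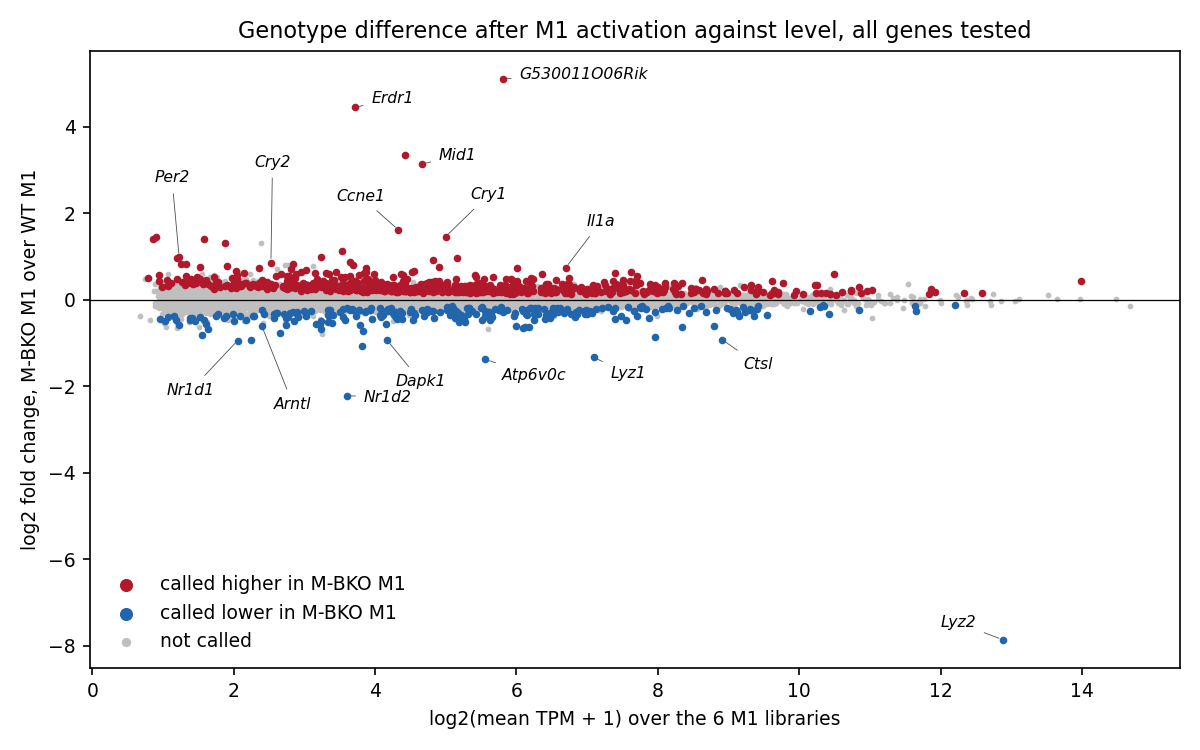
Log2 fold change of M-BKO M1 over WT M1 (vertical) against log2(mean TPM + 1) over the 6 M1 libraries (horizontal) for the 10042 genes tested. Red and blue points are the 646 genes called higher and the 263 called lower, and grey points were not called. Lyz2 stands alone at the bottom right, and few genes lie beyond 1 on the log2 scale in either direction.

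Lyz2, the gene that holds the Cre, had 78.8, 62.3 and 52.3 TPM in M-BKO M1 cultures, against 15081, 15057 and 14840.2 TPM in WT M1 cultures (log2 fold change -7.86). Lyz1, its near-identical neighbour (chr10:117287795-117292868), was also lower, with 73.8, 80.2 and 75.5 TPM in M-BKO M1 and 212, 179 and 192 TPM in WT M1 cultures (log2 fold change -1.33), although reads of both lysozyme genes may be split between them and the Lyz1 value is uncertain. Within 5 Mb of Lyz2, 3 of 33 tested genes were called (9.09%, against 9.05% of all genes tested), and within 5 Mb of Arntl, 2 of 34 (5.88%).

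Of the 4 largest rises, 3 were in genes at the ends of the sex chromosomes. Mid1, a microtubule-bound ubiquitin ligase (chrX:169685247-169990797), had 46.7, 43.1 and 44.1 TPM in M-BKO M1 and 3.803, 3.89 and 4.91 TPM in WT M1 cultures (log2 fold change 3.14, adjusted p = 6.99e-12). In its span, on the other strand, lies the predicted gene G530011O06Rik (chrX:169975043-169978917), chosen after its values were seen, with 108, 106 and 109 TPM in M-BKO M1 and 1.83, 2.02 and 2.67 TPM in WT M1 cultures (log2 fold change 5.11). Erdr1, listed on the Y chromosome, had 29.4, 25.2 and 17.6 TPM in M-BKO M1 and 0.267, 0.126 and 0 TPM in WT M1 cultures (log2 fold change 4.45, adjusted p = 1.77e-10). Mid1 crosses the boundary of the region that the mouse X and Y share, and Erdr1 lies within it. Y-linked Ddx3y was at 21.1, 20.1 and 21.04 TPM in M-BKO M1 and 18.3, 14.5 and 17.6 TPM in WT M1 cultures and Xist at no more than 0.00554 TPM in any of the 12 libraries. The labels give 1 strain for all cultures and no sex, and whether the mice differed in alleles near these genes was not tested. Mid1 differed as much without LPS (log2 fold change 3.32, with 18.1, 18.1 and 18.1 TPM in M-BKO control and 1.01, 0.884 and 0.832 TPM in WT control cultures). The other of the 4 was the predicted gene Gm5643_1 on chromosome 15, also chosen after its values were seen, which had 36.4, 33 and 41.9 TPM in M-BKO M1 and 0.719, 2.54 and 7.67 TPM in WT M1 cultures (log2 fold change 3.34, adjusted p = 0.000583).

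Ccne1, cyclin E1, which drives entry into S phase with Cdk2 (chr7:38097984-38107490), had 29.5, 29.4 and 29.04 TPM in M-BKO M1 cultures, against 9.08, 8.51 and 9.13 TPM in WT M1 cultures (log2 fold change 1.61, standard error 0.069, adjusted p = 4.66e-09). The D-type cyclins that act earlier in the cycle were lower, Ccnd1 by a log2 fold change of -0.46 (adjusted p = 5.04e-05) and Ccnd3 by -0.33 (adjusted p = 0.00518). Pop4, a subunit of ribonuclease P that lies near Ccne1 (chr7:38262820-38271348), had 32.9, 35.1 and 40.1 TPM in M-BKO M1 and 19.3, 17.4 and 18.6 TPM in WT M1 cultures (log2 fold change 0.93). Cav1, the main protein of caveolae, had 15.4, 14.95 and 15.4 TPM in M-BKO M1 and 9.502, 6.83 and 7.32 TPM in WT M1 cultures, and the sialic acid receptor Cd33 had 7.68, 8.49 and 8.37 TPM in M-BKO M1 and 4.37, 4.46 and 3.71 TPM in WT M1 cultures. Neither gene overlapped between genotypes, which the rule for naming the largest rises required. Zfp429, a zinc finger gene, rose by 1.13 on the log2 scale, U90926, an RNA gene, by 0.96, and Sirpb1a, a signal regulatory protein with close copies that makes its value uncertain, by 0.80.

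Among the falls, Ctsl, the lysosomal protease cathepsin L (chr13:64363214-64370306), had 322, 342 and 329 TPM in M-BKO M1 cultures, against 606, 659 and 618 TPM in WT M1 cultures (log2 fold change -0.92, standard error 0.042, adjusted p = 7.23e-09). Dapk1, a kinase of cell death and autophagy, had 12.1, 10.7 and 11.4 TPM in M-BKO M1 and 23.1, 22.8 and 22.02 TPM in WT M1 cultures (log2 fold change -0.93). The 2 groups stood apart for Ctsl and Dapk1, which the rule for naming the largest falls required. The phospholipase gene Pla1a (-0.67) and the BCL-2 family member Bcl2l14 (-0.65) fell less. Atp6v0c, a subunit of the proton pump, had 26.4, 27.9 and 21.4 TPM in M-BKO M1 against 63.9, 77.5 and 60.3 TPM in WT M1 cultures (log2 fold change -1.38), and the glycolytic enzyme Eno1 had 267, 269.8 and 222 TPM in M-BKO M1 against 422, 416 and 341 TPM in WT M1 cultures (log2 fold change -0.63). Both have near-identical copies in the mouse genome, so their values are uncertain, as is that of Tdg, a DNA repair gene (log2 fold change -0.94), whose call was kept in 1 of the 6 fits without an M1 library (highest adjusted p = 0.169).

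**Figure D3:**
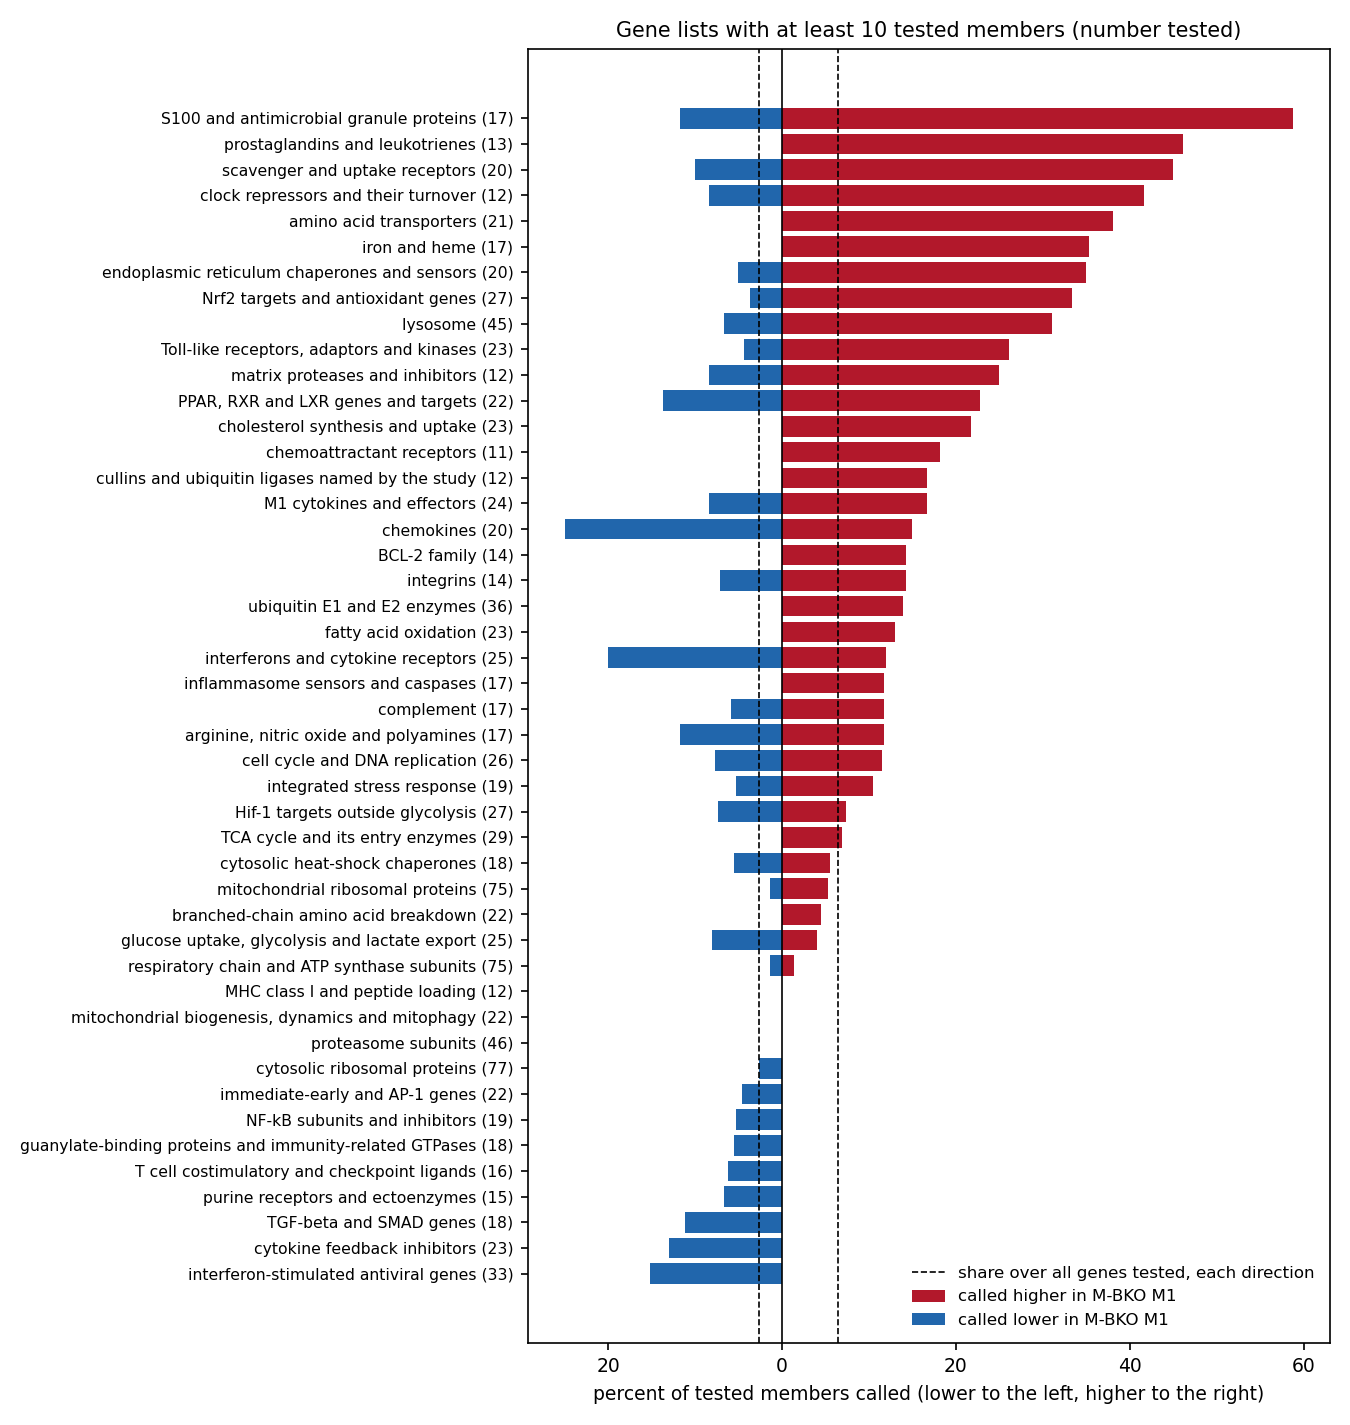
Percent of tested members called higher (red, right) and lower (blue, left) in M-BKO M1 against WT M1 for each gene list with at least 10 tested members, whose number stands in parentheses. Dashed lines mark the shares over all genes tested, 6.43% higher and 2.62% lower. S100 and antimicrobial genes have the longest bar to the right (58.8%), and the chemokines the longest to the left (25.0%).

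Inflammatory mediators moved in both directions. Of 24 tested M1 cytokines and effectors, 4 rose and 2 fell (2 and 5 after median-ratio scaling, 2 rises without M-BKO_M1 replicate 1 or 3 or WT_M1 replicate 2 or 3), with a median log2 fold change of 0.05, against 0.03 over all genes tested. Il1a, which encodes interleukin-1α (chr2:129299610-129309972), had 129, 129.9 and 127 TPM in M-BKO M1 cultures, against 80.8, 73.6 and 75.6 TPM in WT M1 cultures (log2 fold change 0.74, standard error 0.074, adjusted p = 3.62e-05). Its sister gene Il1b had 3385, 3296 and 3338 TPM in M-BKO M1 and 2642, 2526 and 2596 TPM in WT M1 cultures, with no overlap, but did not pass the test (log2 fold change 0.37, adjusted p = 0.0815, and 0.03 after quantile normalization). Ebi3, the shared subunit of interleukins 27 and 35, fell, with 499.9, 491 and 486 TPM in M-BKO M1 and 639, 624 and 668 TPM in WT M1 cultures (log2 fold change -0.38, adjusted p = 0.000552). Its interleukin-27 partner Il27 was also called lower (-0.27), in 2 of the 6 fits without an M1 library (highest adjusted p = 0.0784). Defining M1 genes outside the rule for naming, chosen after their values were seen, were not called: Tnf (log2 fold change 0.10, 95% interval 0.01 to 0.19), Nos2 (-0.10, -0.24 to 0.04), Il6 (0.35, 0.03 to 0.66) and Il12b (-0.43, -0.73 to -0.13). Il12b had 1905, 1572 and 1843 TPM in M-BKO M1 and 2763, 2017 and 2427 TPM in WT M1 cultures, and its adjusted p was 0.0316 after median-ratio scaling and 0.0485 without WT_M1 replicate 2.

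Chemokines leaned lower, with 5 of 20 tested called lower and 3 higher (3 lower without M-BKO_M1 replicate 1 or 2). Cxcl1, an attractant of neutrophils, had 11.02, 9.65 and 8.21 TPM in M-BKO M1 and 18.9, 14.03 and 17.04 TPM in WT M1 cultures (log2 fold change -0.73, adjusted p = 0.00153). The interferon-induced Cxcl11 had 147, 132 and 145 TPM in M-BKO M1 and 206, 184 and 187 TPM in WT M1 cultures (log2 fold change -0.44, adjusted p = 0.00105), and the far more abundant Cxcl10 fell by 0.25 (adjusted p = 0.00892). Cxcl3, which attracts the same cells as Cxcl1, went the other way, with 5.57, 5.997 and 4.63 TPM in M-BKO M1 and 3.69, 1.93 and 3.04 TPM in WT M1 cultures (log2 fold change 0.74). Pf4, the platelet factor that macrophages also make, had 171, 165 and 171 TPM in M-BKO M1 and 131, 137 and 134 TPM in WT M1 cultures (log2 fold change 0.33, adjusted p = 9.43e-05), while the platelet markers Itga2b and Ppbp lay between 1.24 and 2.36 TPM and Gp9, Gp1bb and Gp1ba under 1 TPM in all 6 libraries. The chemokine receptor gene Cx3cr1 was under 1 TPM in every M1 culture and was not tested.

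Antiviral interferon-stimulated genes moved only downward where they were called. Of 33 tested, 5 fell and none rose (8 and 0 after median-ratio scaling), with a median log2 fold change of -0.08, and without LPS 14 fell. Over all genes tested, 2.62% were called lower as deposited and 4.88% after median-ratio scaling. Cmpk2, a mitochondrial nucleotide kinase, had 474, 438 and 519 TPM in M-BKO M1 and 583, 597 and 591 TPM in WT M1 cultures (log2 fold change -0.31, adjusted p = 0.00287). Usp18, which removes the ubiquitin-like Isg15 from proteins and dampens interferon receptors, had 581, 557 and 608 TPM in M-BKO M1 and 674, 689 and 669 TPM in WT M1 cultures (log2 fold change -0.22, adjusted p = 0.00827). Cmpk2 and Usp18 were the members called in each of the 6 fits without an M1 library, and 2 was the count without M-BKO_M1 replicate 1 or 2 or WT_M1 replicate 2 or 3. Feedback inhibitors of cytokine signalling followed the same direction. Of 23 tested, 3 fell and none rose, among them Socs1 (203, 199.8 and 192 TPM in M-BKO M1, 234, 283 and 283 TPM in WT M1, log2 fold change -0.42, adjusted p = 0.00512) and the MAP kinase phosphatase Dusp1 (-0.28, adjusted p = 0.00259). Stat3 was slightly lower (-0.15, adjusted p = 0.0251), in 3 of the 6 fits (highest adjusted p = 0.0924).

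Toll-like receptor genes and their adaptors held 6 rises and 1 fall among 23 tested (4 and 1 after median-ratio scaling, and 3 rises without M-BKO_M1 replicate 1 or 2 or WT_M1 replicate 2 or 3). Tlr13, a sensor of bacterial ribosomal RNA, had 13.5, 14.4 and 13.9 TPM in M-BKO M1 and 9.24, 8.85 and 9.37 TPM in WT M1 cultures (log2 fold change 0.56, adjusted p = 0.000192). Irak3, an inhibitory member of the signalling kinase family, rose by 0.43 (adjusted p = 0.00233), and the LPS co-receptor Cd14 by 0.24 (adjusted p = 0.00242). Tlr9, a sensor of unmethylated DNA, fell, with 125, 108 and 121 TPM in M-BKO M1 and 141, 148 and 143 TPM in WT M1 cultures (log2 fold change -0.29). Among cytokine receptors, Csf1r, the receptor that macrophages need to survive, had 339.7, 336 and 333 TPM in M-BKO M1 and 252, 271 and 253 TPM in WT M1 cultures (log2 fold change 0.38, adjusted p = 2.48e-05). Il4ra, the receptor subunit for interleukins 4 and 13, had 155, 152 and 152 TPM in M-BKO M1 and 202, 206 and 192 TPM in WT M1 cultures (log2 fold change -0.38, adjusted p = 0.000212). Tgfbr2 (-0.27) and Il18rap (-0.41) also fell.

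Prostaglandin and leukotriene genes held 6 rises and no fall among 13 tested, with a median log2 fold change of 0.22 (5 rises after median-ratio scaling, as few as 3 without M-BKO_M1 replicate 3). Pla2g4a, the phospholipase that frees arachidonic acid, had 95.7, 94.3 and 95.2 TPM in M-BKO M1 and 76.8, 70.8 and 73.7 TPM in WT M1 cultures (log2 fold change 0.36, adjusted p = 0.00124). Ptges, the prostaglandin E synthase, had 74.4, 73.96 and 70.8 TPM in M-BKO M1 and 52.3, 57.98 and 51.3 TPM in WT M1 cultures (log2 fold change 0.43, adjusted p = 0.00293), and Alox5ap, which feeds 5-lipoxygenase, rose by 0.30 (adjusted p = 9.43e-05). The groups did not overlap for any of the 3.

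S100 and antimicrobial genes had the highest share of rises, 10 of 17 tested, with a median log2 fold change of 0.34 and counts of 7 to 9 in the fits without an M1 library. S100a4 had 989, 959 and 1009 TPM in M-BKO M1 and 747, 749.7 and 773 TPM in WT M1 cultures (log2 fold change 0.38, adjusted p = 0.00024). Lcn2, which binds bacterial iron carriers, had 237, 264 and 237 TPM in M-BKO M1 and 149, 189.8 and 164 TPM in WT M1 cultures (log2 fold change 0.56, adjusted p = 0.000457), and Wfdc17, an inhibitor of inflammatory activation, rose by 0.34. Saa3, an acute-phase protein chosen after its values were seen because it was the most abundant called gene beside Lyz2, had 17732, 19806 and 18202 TPM in M-BKO M1 and 12882, 15261 and 13107 TPM in WT M1 cultures (log2 fold change 0.44, adjusted p = 0.00283). S100a9 had 65.2, 65.5 and 68.3 TPM in M-BKO M1 and 42.8, 50.96 and 47.6 TPM in WT M1 cultures (log2 fold change 0.49), and its partner S100a8 rose by 0.52, a call kept in 2 of the 6 fits (highest adjusted p = 0.0825). Both were named by the study from the same libraries and are no independent evidence. The 2 falls of the list are Lyz2 and Lyz1. Neutrophils also make several of these proteins. The summed level of 12 neutrophil markers, 4 of which averaged at least 1 TPM, was 125 to 132 TPM in M-BKO M1 and 88.5 to 95.2 TPM in WT M1 cultures, and S100a8 and S100a9 made most of it. The granule genes Camp, at 3.95, 4.12 and 3.78 TPM in M-BKO M1 and 2.602, 2.45 and 1.99 TPM in WT M1 cultures (adjusted p = 0.00995, kept in 5 of the 6 fits), and Ngp, at 7.36, 7.13 and 7.58 TPM in M-BKO M1 and 5.46, 6.41 and 5.55 TPM in WT M1 cultures (adjusted p = 0.0303, kept in 1 of the 6 fits and not called after median-ratio scaling), were also higher. The markers Elane, Mpo, Prtn3, Ctsg, Cxcr2, Retnlg, Ltf and Mmp8 stayed under 1 TPM in all 6 M1 libraries. Of these, Ltf had 0.597, 0.578 and 0.55 TPM in M-BKO M1 and 0.455, 0.429 and 0.543 TPM in WT M1 cultures, without overlap. The others did not stand apart between genotypes.

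Scavenger and uptake receptors rose in 9 of 20 tested and fell in 2 (7 and 2 after median-ratio scaling). Msr1, the class A scavenger receptor, had 193, 205 and 208 TPM in M-BKO M1 cultures, against 126, 133 and 132 TPM in WT M1 cultures (log2 fold change 0.63, adjusted p = 1.22e-05). Clec4n, the fungal sensor Dectin-2 (chr6:123229843-123247024), had 80.1, 80.7 and 78.6 TPM in M-BKO M1 and 47.9, 46.3 and 47.4 TPM in WT M1 cultures (log2 fold change 0.75, adjusted p = 8.99e-08). Neither overlapped between genotypes. Trem2, a receptor for lipids and dying cells, rose by 0.42 (adjusted p = 0.00126) and the fatty acid carrier Cd36 by 0.46 (adjusted p = 0.00437). Cd5l, a secreted scavenger protein, fell, with 10.3, 10.03 and 9.58 TPM in M-BKO M1 and 15.6, 15.1 and 15.9 TPM in WT M1 cultures (log2 fold change -0.59), and so did the uptake receptor Axl (-0.19).

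Lysosomal genes held 14 rises and 3 falls among 45 tested (8 and 4 after median-ratio scaling, 8 rises without M-BKO_M1 replicate 1 or WT_M1 replicate 3). The rises were small. Ctsc, which activates serine proteases, had 2015, 1992 and 2033 TPM in M-BKO M1 and 1632, 1649 and 1659.8 TPM in WT M1 cultures (log2 fold change 0.29, adjusted p = 0.000426), Ctsd rose by 0.23 and Hexa by 0.21. Ctsl and Atp6v0c, given above, and the ion channel Mcoln1 (-0.24) were the falls. Chaperones and sensors of the endoplasmic reticulum rose in 7 of 20 tested, and in 4 without WT_M1 replicate 2, while the stress sensor Ern1 fell by 0.22, a call kept in none of the 6 fits (highest adjusted p = 0.156). Calr had 1063, 1051 and 1069.9 TPM in M-BKO M1 and 908, 918 and 927 TPM in WT M1 cultures (log2 fold change 0.21), and Canx rose by 0.27. Both hold newly made glycoproteins for folding.

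Amino acid transporters rose in 8 of 21 tested and fell in none (6 and 0 after median-ratio scaling, 6 or 7 rises without an M1 library), with a median log2 fold change of 0.14. Slc7a11, the cystine importer (chr3:50364936-50443613), had 28.9, 27.1 and 24.97 TPM in M-BKO M1 cultures, against 19.1, 16.2 and 15.2 TPM in WT M1 cultures (log2 fold change 0.65, standard error 0.094, adjusted p = 0.000833). Slc7a2, which brings in arginine, had 315, 301 and 313 TPM in M-BKO M1 and 246, 230.4 and 229 TPM in WT M1 cultures (log2 fold change 0.40, adjusted p = 0.000129). Slc7a8, a carrier of neutral amino acids, had 283, 270.4 and 283 TPM in M-BKO M1 and 213, 224 and 218 TPM in WT M1 cultures (log2 fold change 0.35, adjusted p = 0.000128). All 3 stood apart in every culture. Slc38a2 rose by 0.29 (adjusted p = 0.00395) and Slc38a7 by 0.25 (adjusted p = 0.0111), although Slc38a7 was not called without WT_M1 replicate 3 (adjusted p = 0.06). The study itself named each of these transporters from the same libraries, so their rises are no independent evidence. Arg1, the arginase gene that competes with Nos2 for arginine, was below the level for testing, with at most 1.31 TPM.

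The branched-chain amino acid breakdown list had 1 rise among 22 tested (4.55%, against 6.43% of all genes tested). Bckdhb (log2 fold change 0.19, 95% interval 0.01 to 0.37) and Aldh6a1 (0.28, 0.06 to 0.49) did not pass the test. Of 36 ubiquitin E1 and E2 enzymes, 5 rose and none fell, with 2 rises left without M-BKO_M1 replicate 1. Ube2e3 had 29.4, 31.3 and 27.2 TPM in M-BKO M1 and 24.8, 22.6 and 23.7 TPM in WT M1 cultures (log2 fold change 0.30, adjusted p = 0.00795). Ube2q2 rose by 0.39 in 3 of the 6 fits (highest adjusted p = 0.0579), and the activating enzyme Uba6 by 0.39 in 1 of them (highest adjusted p = 0.153). The study itself picked Ube2e3, Ube2q2, Uba6 and several cullins and ubiquitin ligases from these libraries, so these genes are no independent evidence. Of 12 cullins and ubiquitin ligases tested, 2 rose. These were Rnf128 (16.98, 17.02 and 15.03 TPM in M-BKO M1, 12.5, 10.7 and 10.96 TPM in WT M1, log2 fold change 0.49, adjusted p = 0.00292) and Cblb (0.26, adjusted p = 0.00906). Without WT_M1 replicate 1, 7 of the 12 were called. Cul3 is an example, with 58.7, 61.2 and 58.2 TPM in M-BKO M1 and 56.7, 45.4 and 45.8 TPM in WT M1 cultures (log2 fold change 0.27, adjusted p = 0.131), where the first WT culture lay near the M-BKO values. None of 46 proteasome subunits was called by limma, while 10 were higher and none lower at an unadjusted p under 0.05. For comparison, 1822 of all 10042 genes tested were higher and 787 lower at that threshold.

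Targets of Nrf2, the regulator of antioxidant defence, rose in 9 of 27 tested and fell in 1, and 5 and 1 did so after median-ratio scaling. Without M-BKO_M1 replicate 1, 5 rose. Slc7a11, above, is one. Srxn1, which repairs oxidised peroxiredoxins, had 424, 404 and 407 TPM in M-BKO M1 and 352, 355 and 346 TPM in WT M1 cultures (log2 fold change 0.23, adjusted p = 0.00395), and the thioredoxin reductase Txnrd1 rose by 0.23 (adjusted p = 0.0025). Calls of the regulator Nfe2l2 (0.18), of Gclc in glutathione synthesis (0.33) and of the heme oxygenase Hmox1 (0.16) were kept in 3, 2 and 2 of the 6 fits without an M1 library, with highest adjusted p of 0.0658, 0.0708 and 0.119. After median-ratio scaling Nfe2l2 (adjusted p = 0.0558) and Hmox1 (adjusted p = 0.22) were not called. Nqo1 had a log2 fold change of -0.02 (-0.40 to 0.36). Iron and heme genes rose in 6 of 17 tested (3 without M-BKO_M1 replicate 1 or 2 or WT_M1 replicate 3), among them the ferritin receptor Ncoa4 (46.1, 47.6 and 47.1 TPM in M-BKO M1, 37.5, 35.8 and 36.5 TPM in WT M1, log2 fold change 0.35), the iron exporter Slc40a1 (0.39) and the ferroxidase Cp (0.33).

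Hif1a, which encodes the oxygen-sensitive subunit of Hif-1, had 375, 363 and 385 TPM in M-BKO M1 and 380.4, 343 and 355 TPM in WT M1 cultures. The groups overlapped, and the log2 fold change of 0.06 had a 95% interval of -0.06 to 0.18. Of 27 tested Hif-1 targets outside glycolysis, 2 rose and 2 fell. Of 25 genes of glucose uptake, glycolysis and lactate export, 1 rose and 2 fell (0 and 4 after median-ratio scaling), with Ldha at -0.06 (-0.13 to 0.00) and Slc2a1, chosen after its values were seen like Vegfa, at -0.10 (-0.20 to 0.00). Vegfa (-0.16, adjusted p = 0.0572) was not called as deposited but passed with Lyz2 left out of the totals (adjusted p = 0.0377) and after median-ratio scaling (adjusted p = 0.0132). Enzymes of the TCA cycle held 2 rises among 29 tested and none after median-ratio scaling, respiratory chain subunits 1 rise and 1 fall among 75, and regulators of mitochondrial biogenesis no call among 22 (5 higher and none lower at an unadjusted p under 0.05). By the same unadjusted threshold, 1822 of all genes tested were higher and 787 lower. Of all genes tested, 6.43% were called higher and 2.62% lower, or 4.2% and 4.88% after median-ratio scaling. The rises among TCA cycle genes (6.90%) and Hif-1 targets (7.41%) lay near that share. Myc (0.02, -0.21 to 0.25), Nfkb1 (0.09, -0.00 to 0.19), Ppard (-0.04, -0.26 to 0.19), Pparg (0.13, -0.06 to 0.32) and Bnip3 (-0.00, -0.22 to 0.21) were not called.

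Lipid genes changed in small groups. Cyp51, an enzyme of cholesterol synthesis, had 5.06, 5.38 and 5.54 TPM in M-BKO M1 and 4.06, 3.44 and 3.88 TPM in WT M1 cultures, with no overlap (log2 fold change 0.40, adjusted p = 0.0062). Of 23 cholesterol genes, 5 rose and none fell, and 2 rose without M-BKO_M1 replicate 3 or WT_M1 replicate 2 or 3. Without LPS, 11 of the 23 rose. Acsl1, which activates fatty acids with coenzyme A, had 915, 882 and 912 TPM in M-BKO M1 and 680.0, 655 and 670.2 TPM in WT M1 cultures (log2 fold change 0.43, adjusted p = 5.9e-06). Among 22 genes of the PPAR, RXR and LXR receptors and their targets, 5 rose and 3 fell (3 rises without M-BKO_M1 replicate 3 or WT_M1 replicate 3). Lpl, the secreted lipase, rose by 0.33 (adjusted p = 0.00251), while the cholesterol exporter Abcg1, with 81.1, 79.5 and 80.7 TPM in M-BKO M1 and 98.7, 103 and 102 TPM in WT M1 cultures, and the desaturase Scd2 fell (log2 fold changes -0.33 and -0.46). Proteases of the matrix also differed. Adam17, which sheds TNF from the cell surface, had 225, 218 and 225 TPM in M-BKO M1 and 173, 157 and 164 TPM in WT M1 cultures (log2 fold change 0.43, adjusted p = 0.000163), Mmp13 rose by 0.34 and Mmp12 by 0.44, and the membrane-anchored Mmp25 fell by 0.41.

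Several lists had few or no calls. Of 77 cytosolic ribosomal proteins, 2 were called lower (2.60%) and none higher. The 2, Rpl13 and Rps20, each kept the call in 1 of the 6 fits without an M1 library, that without WT_M1 replicate 1. Of 75 mitochondrial ones, 4 were called higher (5.33%) and 1 lower (1.33%), with 1 higher and none lower without M-BKO_M1 replicate 1 or 3. No call fell on the pentose phosphate pathway (9 tested), MHC class II (8 tested) or MHC class I and peptide loading (12 tested), where 1 gene of each list was higher at an unadjusted p under 0.05. Single genes were called lower among 22 immediate-early and AP-1 genes (Batf3, -0.56), 19 NF-kB genes (Bcl3, -0.32) and 18 guanylate-binding proteins and immunity-related GTPases (Gbp1, -0.38). The calls of Batf3 and Bcl3 were kept in 1 of the 6 fits each (highest adjusted p = 0.0877 and 0.108), and that of Gbp1 in all 6.

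The genotype difference was then compared with that in cultures without LPS, where 438 genes were called higher (4.36%) and 111 lower (1.11%), 5.47% of the same 10042 together. Of the genes called after M1, 155 were higher and 46 lower in both settings, 8 were called in opposite directions, and 700 were not called in the control cultures. The difference between both genotype effects passed its own test for 158 genes (1.57%), 0.617% above and 0.956% below 0, and for 105 of the 909 genes called after M1. Without LPS, 11 cholesterol, 15 lysosomal, 8 endoplasmic reticulum and 8 scavenger genes were called higher, against 5, 14, 7 and 9 after M1. Ubiquitin E1 and E2 enzymes and iron and heme genes had no rise without LPS, against 5 and 6 after M1. Clock genes differed without LPS as well. Nr1d2 had 0.609, 0.874 and 1.18 TPM in M-BKO control and 9.01, 9.17 and 10.6 TPM in WT control cultures (log2 fold change -2.50), and Per2 had 1.89, 2.24 and 2.16 TPM in M-BKO control and 0.3305, 0.245 and 0.426 TPM in WT control cultures (1.21). Cry1 differed more without LPS, with 23.9, 25.6 and 24.4 TPM in M-BKO control and 4.75, 4.33 and 5.28 TPM in WT control cultures (log2 fold change 2.15, interaction -0.69, adjusted p = 0.00218).

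Other named genes, many of them chosen for their difference after M1, differed between genotypes mainly in that setting. Ctsl had 591, 604 and 607 TPM in M-BKO control and 589, 609.7 and 641 TPM in WT control cultures, with overlap, and its interaction was -0.89 (adjusted p = 7.07e-06). Ccne1 had 15.2, 14.99 and 16.9 TPM in M-BKO control and 12.3, 12.1 and 14.3 TPM in WT control cultures (interaction 1.35, adjusted p = 1.11e-05). Acsl1 had an interaction of 0.56 (adjusted p = 6.91e-05) and Slc7a2 of 0.39 (adjusted p = 0.00924). Atp6v0c had a positive difference without LPS that did not pass the test (adjusted p = 0.0684), with 26.4, 19.1 and 16.1 TPM in M-BKO control and 13.7, 15.8 and 8.404 TPM in WT control cultures (interaction -2.05, adjusted p = 0.00231). Il1a and Cxcl1 stayed under 1 TPM in the control cultures of both genotypes, a level at which a genotype difference like that after M1 could hardly show.

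**Figure D4:**
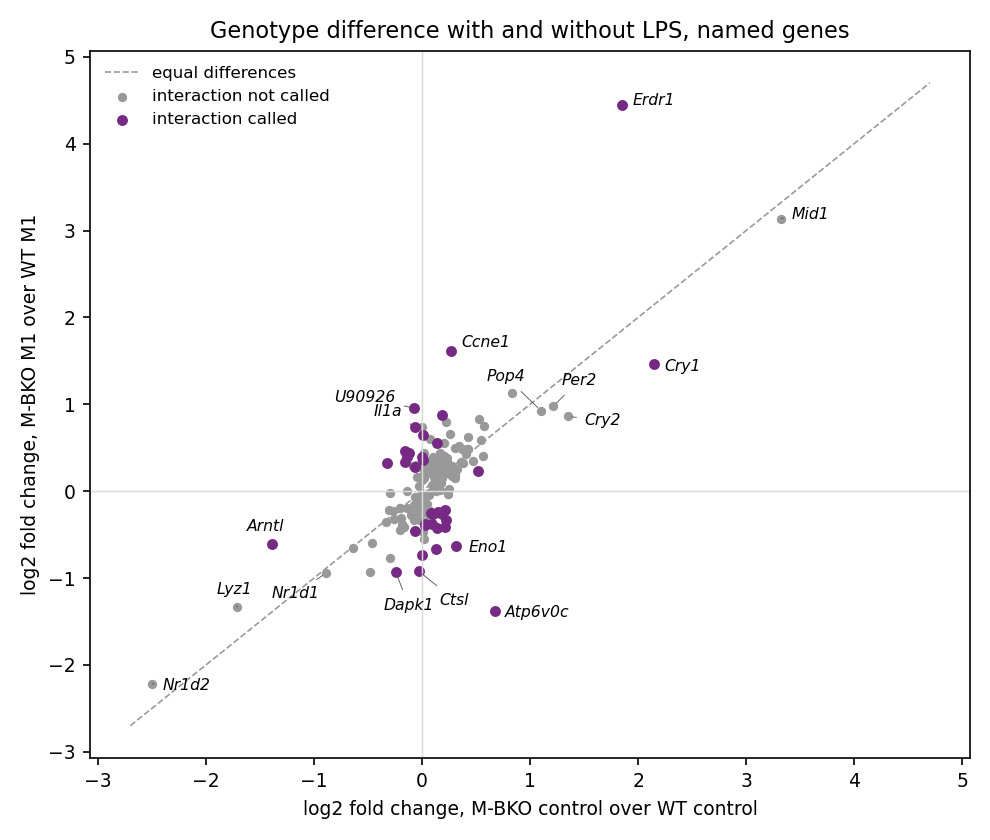
Log2 fold change of M-BKO M1 over WT M1 (vertical) against that of M-BKO control over WT control (horizontal) for the named genes other than Lyz2. Many of these were chosen for their difference after M1. Purple points are genes whose interaction was called, and the dashed line marks equal differences. Mid1, Per2 and Nr1d2 lie close to the line, while Ccne1, Il1a and U90926 lie above it and Ctsl, Eno1 and Atp6v0c below it.

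**Figure D5:**
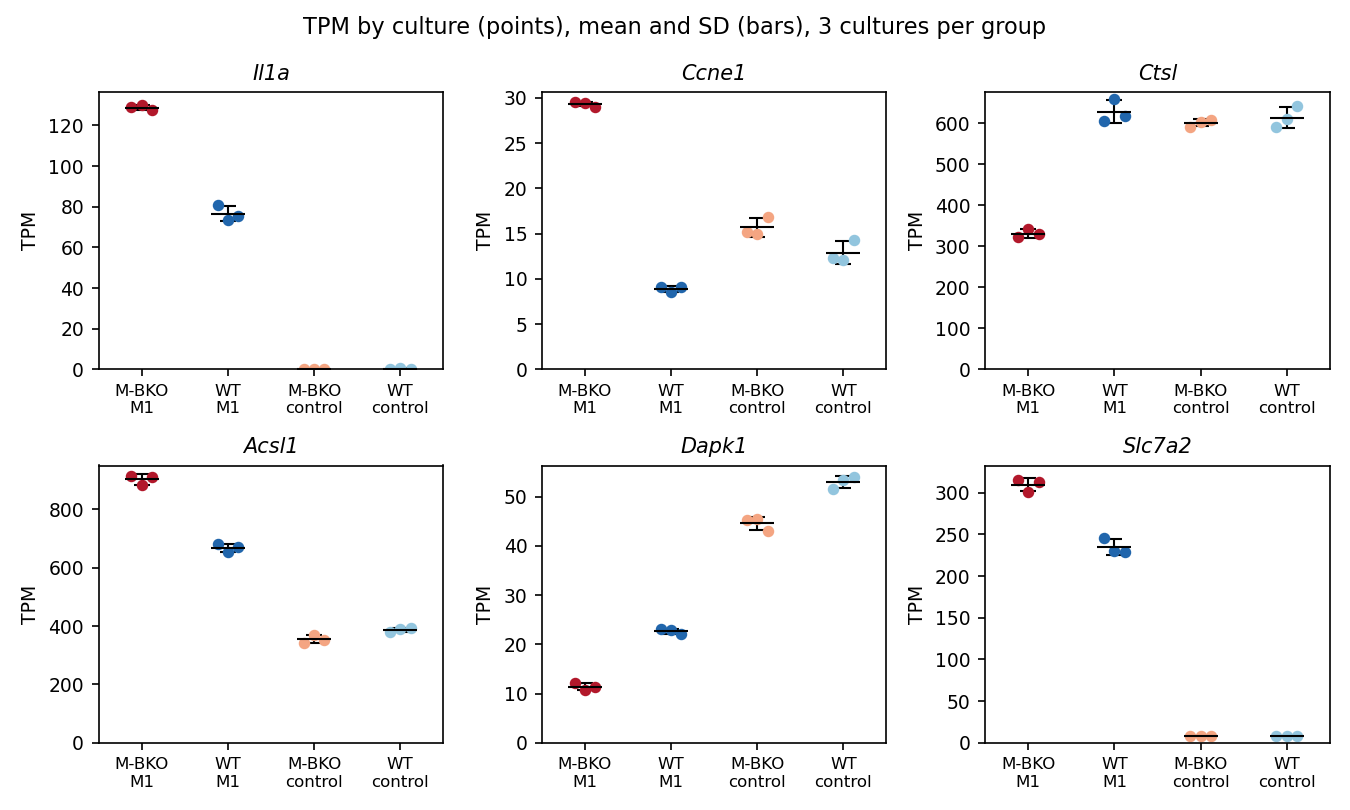
TPM of Il1a, Ccne1, Ctsl, Acsl1, Dapk1 and Slc7a2 by culture in M-BKO M1, WT M1, M-BKO control and WT control macrophages. Points are cultures and bars are the mean and SD of 3 cultures per group. The M-BKO M1 and WT M1 points do not overlap for any of the 6 genes, and Ctsl in control cultures lies at 591.1 to 607 TPM in M-BKO and 589.5 to 641 TPM in WT macrophages.

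As a check of the cells, all 12 macrophage markers were at 1 TPM or more, with a summed level of 8995 to 9186 TPM in M-BKO M1 and 8120 to 8556 TPM in WT M1 cultures. Emr1, the F4/80 antigen, had 1240.0, 1217 and 1329 TPM in M-BKO M1 and 1147, 1117 and 1155 TPM in WT M1 cultures. Markers of B cells, mast cells and erythroid cells summed to at most 2.62 TPM in any M1 library. Those of T and NK cells summed to 6.22 to 6.83 TPM in M-BKO M1 and 5.23 to 6.67 TPM in WT M1 cultures, most of it from Lck. Dendritic cell markers summed to 274 to 326 TPM in M-BKO M1 and 323 to 417 TPM in WT M1 cultures, and Ccl22, which activated macrophages also make, held most of that sum. Of the 12, 7 averaged at least 1 TPM in either genotype, among them Ccr7 (53.3, 47.6 and 49.04 TPM in M-BKO M1 and 55.5, 53.5 and 57.02 TPM in WT M1), Btla, Fscn1, Xcr1 and Clec9a, while Flt3 and Zbtb46 stayed under 0.5 TPM. Stromal and endothelial markers summed to 45.9 to 54.3 TPM in M-BKO M1 and 67.7 to 68.3 TPM in WT M1 cultures, nearly all from Kdr and Pecam1. The part of these cell types in the results above was not tested.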

How the data were processed

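Per the labels and the study's methods, stranded mRNA libraries were made from 12 cultures, whose reads the authors trimmed and aligned (mouse build mm10) with CLC Genomics Workbench. The deposited table holds the authors' TPM values per gene, and each library sums to 1000000. TPM keep no read number, so the depth is unknown and precision was taken from the spread between the 3 cultures of a group. The authors' table of fold changes, p-values and adjusted p-values was not used, and measurements other than RNA-seq were not analysed here.

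The 10042 genes that reached 1 TPM in 3 or more of the 6 M1 libraries were fitted as log2(TPM + 1) with limma 3.58.1 in R 4.3.3, with 4 group means over 12 libraries (8 residual degrees of freedom), a variance trend with the level and two-sided tests. Adjusted p-values are Benjamini-Hochberg over all genes tested, and genes were called under 0.05. The fit was tested on simulated data. The study's text states thresholds but no test for these comparisons.

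Named genes are the 12 largest rises and falls among called genes whose higher group averaged 5 TPM or more and whose groups did not overlap (predicted genes excepted); the 3 called members of each gene list with the smallest adjusted p in each direction; the tested clock genes; genes that the study names for this contrast; and Arntl and Lyz2. Not each of them is described, and some genes are not reported here. The members, lists and tests were chosen with earlier results of these data known. 25 alternatives were planned (pseudocount, filter, scaling, variance model, libraries in the fit, replicate block, fold threshold), and the fits of the M1 comparison without each control library were added after seeing the data. Groups come from the labels, and cultures with the same replicate number were treated as unpaired. Promoters are from RefSeq.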

Additional observations from a re-analysis of the deposited data

Results flagged for a closer look

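For 38 of the named genes the genotype difference after M1 differed from that without LPS by a test of the difference itself (interaction, limma, adjusted p under 0.05). Values are the log2 fold change of M-BKO M1 over WT M1 minus that of M-BKO control over WT control. Many named genes were chosen for their difference after M1. That choice alone favours genes whose difference is larger after M1, so the counts below do not show that M1 widens the genotype difference. No explanation was tested for any of these genes.

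For 16 genes the difference after M1 was positive and lay above that without LPS. The interaction was largest for Erdr1 (2.60, adjusted p = 2.43e-05), Ccne1 (1.35, adjusted p = 1.11e-05) and U90926 (1.03, adjusted p = 0.00124). U90926 stayed under 1 TPM in the 6 control cultures. Il1a (0.81), the importer Slc7a11 (0.64), the arginine carrier Slc7a2 (0.39), the fatty acid genes Acsl1 (0.56) and Cd36 (0.62), the caveolar gene Cav1 (0.70), the iron genes Cp (0.65) and Slc40a1 (0.53), the proteases Mmp12 (0.58) and Mmp13 (0.49), the receptors Tlr13 (0.42) and Fcgr2b (0.34), and Pla2g4a (0.35) followed.

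For 18 genes the difference after M1 was negative and lay below that without LPS. Atp6v0c (-2.05) and Eno1 (-0.95), whose near-identical copies make their values uncertain, Ctsl (-0.89), Pla1a (-0.80), Cxcl1 (-0.73) and Dapk1 (-0.69) had the larger values. The others were Il18rap (-0.62), Socs1 (-0.56), Ndrg1 (-0.55), Nupr1 (-0.47), P2ry6 (-0.45), Socs3 (-0.44), Il4ra (-0.41), Ebi3 (-0.41), Ccnd1 (-0.39), Ski (-0.39), Tgfbr2 (-0.36) and Cxcl10 (-0.33). The difference after M1 itself was called in 2 of the 6 fits without an M1 library for P2ry6, in 1 for Ski and in none for Socs3.

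For 4 genes the difference was smaller after M1 than without LPS. These were the targeted gene Arntl (0.79), Lyz2 (1.35), Cry1 (-0.69) and Cd14 (-0.28).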

How the results depend on the processing

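The counts of calls after M1 were within 1.5 times 646 higher and 263 lower under the other pseudocounts and filters, without the variance trend and without Lyz2 or the 50 most abundant genes. They also stayed within that range in a fit of the 6 M1 libraries alone, with 841 higher and 393 lower. They moved further under median-ratio scaling (422 higher, 490 lower), quantile normalization (429 and 435) and a fold threshold of 1.5 (50 and 24), the last because it removes small changes by its construction. The numbers of calls in control cultures, 438 higher and 111 lower, became 175 higher without Lyz2, 166 higher without the 50 most abundant genes, 129 and 185 under median-ratio scaling, 178 and 185 under quantile normalization, and 26 and 11 with the fold threshold. Interactions, 62 above and 96 below 0, became 94 above 0 under quantile normalization, 38 above 0 without the variance trend, 61 below 0 without the 50 most abundant genes, and 19 and 26 with the fold threshold. Over all gene lists, 136 higher and 60 lower members became 14 and 11 with the fold threshold, and 92 were lower in a fit of the 6 M1 libraries alone. Apart from the fold threshold, the cause of these shifts was not tested.

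Leaving out 1 library at a time gave 321 to 1282 genes higher and 153 to 536 lower after M1, 185 to 694 and 67 to 146 in control cultures, and 27 to 81 interactions above and 30 to 140 below 0. List members were counted only in the 6 fits without an M1 library, with 87 to 158 higher and 40 to 67 lower. No gene called as deposited was called the opposite way in any of these settings. Of the 158 named genes that were called, 106 were called in each of the 6 fits without an M1 library, 19 lost the call under median-ratio scaling and 16 without Lyz2, and none reversed.

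The labels do not say whether replicate numbers pair the cultures, which were treated as unpaired. Same-numbered libraries correlated at -0.271 to 0.313 after removal of group means, and at 0.013 to 0.070 between M-BKO M1 and WT M1. Of the 12 libraries, 5 lay nearest to a library that shared their number. With the replicate number as a block, 607 genes were higher and 256 lower after M1, 397 and 113 in control cultures, 54 and 79 in the interaction, and 130 and 66 among list members. TPM carry no depth, so small differences of low genes cannot be judged beyond the spread of 3 cultures.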

Other observations

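A small set of genes sat on either side of 1 TPM by genotype. Of the genes tested, 25 were at 1 TPM or more in all 3 M-BKO M1 cultures and under it in all 3 WT M1 cultures, and 7 showed the reverse. Such genes, Per2 and Erdr1 among them, passed the filter only through the group where they were higher. Their tests are not free of that selection. Cx3cr1, the fractalkine receptor, was left out of the fit because it was under 1 TPM in the M1 cultures (0.485, 0.422 and 0.402 TPM in M-BKO M1, against 0.083, 0.313 and 0.106 TPM in WT M1). Without LPS it had 9.01, 7.76 and 8.06 TPM in M-BKO control cultures, against 0.539, 0.915 and 0.908 TPM in WT control cultures, and the groups did not overlap. Arg1 had 0.862, 1.31 and 1.08 TPM in M-BKO M1 and 0.422, 0.795 and 0.336 TPM in WT M1 cultures, also without overlap and without a test.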
